A study of Drosophila melanogaster and Nicrophorus vespilloides with 16 samples.

Results

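Long isolated coding genes are genes whose ends stand apart from the ends of other coding genes. They were taken from a RefSeq gene table of the fly as protein-coding genes of at least 5000 bp with no end of another protein-coding gene within 2000 bp of either of their ends, which held for 522 of 13911 protein-coding genes on the 6 chromosome arms. All H3K4me3 summits within 1000 bp of an end of such a gene were kept, 324 of 19036 summits in all, and they lay at 122 of the 522 genes. The summits came from 4 ChIP-seq libraries of whole 3rd instar larvae of Drosophila melanogaster, strain Oregon-R, each made from 30 larvae that were pooled as 1 biological replicate. No transgene or treatment is named in the labels. The study was set up to adapt a solid-state ChIP method (Chromatrap) to insects, and its beetle libraries and the input libraries were not used here. The rule looked at coding gene ends alone. Of the 522 genes 133 had an end of a noncoding gene within 2000 bp, 22 of them among the 63 genes called marked below, and 42 lay within another coding gene, 1 of them marked, so a summit there may belong to the other gene. A summit is the position of highest enrichment in a called peak, deposited with a score of the authors' peak caller.

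H3K4me3, trimethylation of lysine 4 of histone H3, is laid down mainly by the Set1 complex on nucleosomes just downstream of the starts of active genes. In the fly most genes lie so close together that a mark between a pair of genes cannot be assigned to either. Genes with long introns and wide flanks include many regulators of development and of the nervous system, which are active in a few cells, and also the widely active genes of pericentromeric heterochromatin and of chromosome 4, whose introns are filled with repeats. In pools of whole larvae a mark carried by few cells and a weak mark in many cells cannot be told apart.

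Fly replicates 1 to 4 held 3518, 4969, 5236 and 5313 summits in all, and the read depth of each library is unknown. The lists were deposited by library, so the replicates are separate. Of 41 matched marker genes of larval tissues, 3 had a summit near an end in at least 3 replicates (Lsp2 of fat body, Appl of neurons and Dll of imaginal discs). Of the markers 34 had none, and the rest had one in 1 or 2 replicates. Among all coding genes 43.9% had a summit in at least 3 replicates and 49.9% had none. The mark thus gives little by which to check the tissue label.

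H3K4me3 summits were found less often at long isolated genes than at other coding genes in each library. Replicates 1 to 4 had 35, 84, 92 and 113 summits at these genes, which lay at 33, 75, 88 and 103 of the 522 genes. Replicate 1 was the lowest of the 4, and its list was also the shortest. The share of long isolated genes with a summit was thus 6.32%, 14.4%, 16.9% and 19.7% in replicates 1 to 4, a mean of 14.3% ± 5.76 (SD, n = 4). The other 13389 coding genes had shares of 36.9%, 44.9%, 47.7% and 49.7%, a mean of 44.8% ± 5.62 (SD, n = 4). The groups did not overlap. The difference was −30.5 ± 0.393 percentage points (SD, n = 4 replicates, lower in 4 of 4), and a two-sided exact sign-flip permutation test over the libraries gave p = 0.13, which is 2 of 16 sign patterns and the least that 4 replicates allow. Against other coding genes that were also at least 5000 bp long, whose share was 48.5% ± 9.25, the difference was −34.1 ± 3.50 points (exact permutation p = 0.13, again the smallest possible).

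**Figure D1:**
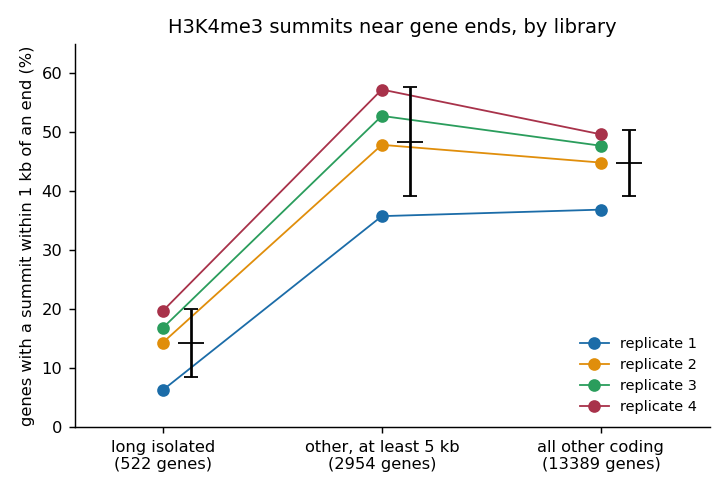
Share of genes with a summit within 1 kb of an end (y axis, percent) for long isolated genes, other coding genes of at least 5 kb and all other coding genes; each point is a library, lines join the values of a library, and the black bars are the mean and SD of 4 libraries. The 4 values of long isolated genes, 6.32% to 19.7%, all lie below those of the other genes.

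The term marked is used for a gene whose end had a summit within 1000 bp in 3 or more of the 4 replicates. By this rule 63 long isolated genes were marked (12.1%), against 45.1% of the other coding genes, 48.1% of other coding genes of at least 5000 bp and 43.9% of all coding genes. A crowded gene can gain a summit from a neighbour, so the count was repeated with summits inside the gene itself. It then came to 61 long isolated genes (11.7%), against 31.8% of the other coding genes, 32.5% of the other long ones and 31.1% of all coding genes. The difference in share by library was then −19.1 ± 1.497 points (SD, n = 4, exact permutation p = 0.13, the smallest possible). Within 250 bp of an end the difference in share was −17.2 points. The count of marked genes depended on the length of the lists: with the best-scoring 3518 summits of each replicate it was 38.

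Presence was uneven across replicates. Of the 522 genes, 28 had a summit in all 4 replicates, 35 in 3, 23 in 2, 36 in 1 and 400 in none (76.6%, against 49.9% of all coding genes). Of the 35 genes present in 3 replicates, 33 lacked replicate 1. Genes seen in a single replicate belonged to replicate 4 in 20 cases, to replicate 3 in 11, to replicate 2 in 3 and to replicate 1 in 2. The order of these numbers is that of the list lengths, and the part of list length in them was not tested.

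At most of these genes the mark sat at 1 end and inside the gene. Summits were found at both ends of 2 genes, cta and anne, and in each case the second end had a summit in 1 replicate. These 2 are 0.383% of the long isolated genes, against 9.75% for other coding genes of at least 5000 bp, at which an end of a neighbour can lie within the same window. At cta, a G protein alpha subunit that shapes cells at gastrulation, the low-coordinate end had summits in replicates 2, 3 and 4 and the other end a summit in replicate 2, 40 bp outside the gene. At anne, the low end had summits in the same 3 replicates and the other end a summit in replicate 4, 741 bp inside the gene, with a score of 4.21 that stood at the 4.22 percentile of that library. Which of the ends is the start is not known from the gene table, which gives no strand.

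Of the 324 summits, 302 lay inside the gene (93.2%) and 224 lay 100 to 500 bp inside the end (69.1%). A further 73 lay more than 500 bp inside, and 5 lay in the first 99 bp of the gene. The median distance inside the end was 302, 242, 292 and 267 bp in replicates 1 to 4, a mean of 276 ± 27.1 bp (SD, n = 4). The share of summits inside the gene, 93.5% ± 1.59, was set against 94.2% ± 0.292 at all other summits near coding gene ends. For those other summits, inside means inside the coding gene whose end was nearest, which at crowded genes can be a neighbour. The difference of −0.723 ± 1.80 points did not pass an exact sign-flip permutation test, two-sided (p = 0.875, n = 4), and it changed sign under 4 alternatives given in the closing section. Of the summits near ends of other coding genes of at least 5000 bp, 95.3% lay inside by that rule, though not always inside the long gene itself. The difference from these was −1.75 ± 2.03 points (SD, n = 4, lower in 4 of 4, exact permutation p = 0.13, the smallest possible).

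**Figure D2:**
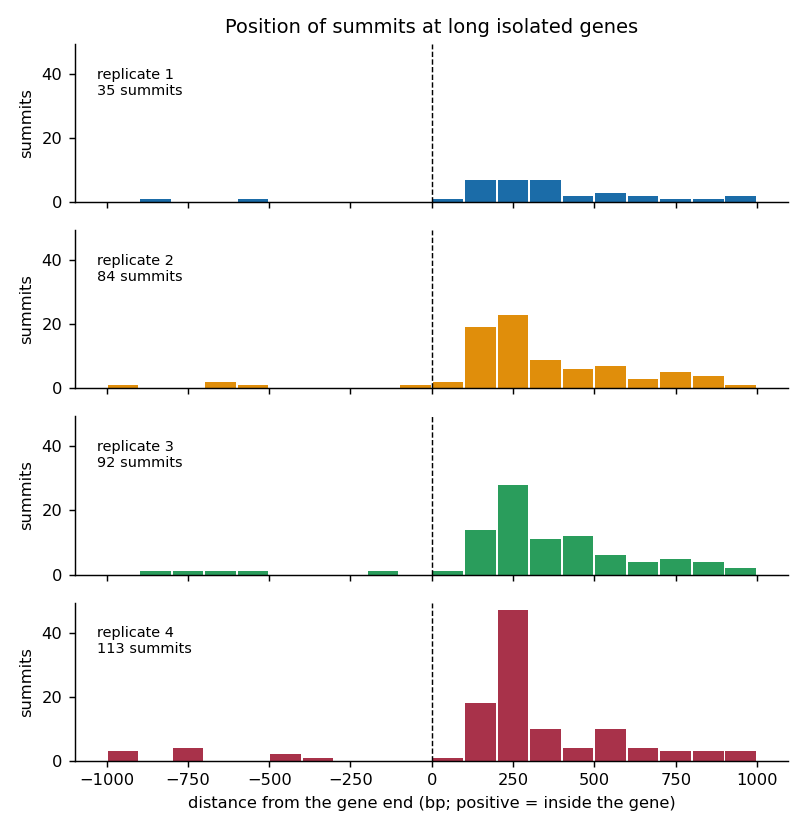
Number of summits (y axis) by distance from the nearer end of the long isolated gene in bins of 100 bp (x axis, positive inside the gene), 1 panel per replicate. The bin from 200 to 300 bp inside the end is the highest in replicates 2, 3 and 4 and level with its neighbours on both sides in replicate 1, with 7, 23, 28 and 47 summits in replicates 1 to 4.

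Positions repeated between replicates. At the 86 gene ends with a summit in at least 2 replicates, the strongest summits of the replicates spanned a median of 163 bp, and 57 of the ends (66.3%) spanned 250 bp or less. The positions of a replicate deviated from the mean of their gene end by a median of 68, 58.4, 45 and 46.3 bp in replicates 1 to 4. The tightest long gene named here was Dbp80, a DEAD-box helicase of mRNA export, whose summits in replicates 2, 3 and 4 lay within 38 bp of each other in a gene of 143 kb.

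The summits at long isolated genes had low scores for their library. A score is a −log10 p-value or q-value and is not scaled between libraries, so each was turned into its percentile among all summits of its library. The median percentile at long isolated genes was 22.1, 30.0, 29.6 and 29.7 in replicates 1 to 4, against 50.9, 51.4, 52.5 and 53.4 at the other summits near coding gene ends. Every library had its long isolated genes lower, and the difference was −24.2 ± 3.18 percentile points (SD, n = 4). An exact sign-flip permutation test, two-sided, gave p = 0.13, the smallest that 4 replicates allow. The difference was −10.7 ± 6.11 points (SD, n = 4) when only summits with a score of at least 5 were kept. It was −10.9 ± 12.3 points with the best-scoring 3518 summits of each library and −14.4 ± 13.5 points within 250 bp of the end. The difference was thus smaller under these settings and varied more between libraries.

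The ranking of genes by score was shared by some pairs of libraries and not by others. Across genes with a summit in both, Spearman's rho of the percentiles was 0.689 between replicates 3 and 4 (74 genes), 0.543 between 2 and 4 (70 genes) and 0.51 between 2 and 3 (63 genes). Replicate 1 had 0.402 with replicate 3, 0.318 with replicate 4 and −0.223 with replicate 2, over 29 to 30 genes. These are correlations across genes, which are not replicates.

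The 12 marked genes with the highest mean percentile are taken in turn, grouped by their known roles after their values were seen. In what follows a gene's percentile is that of its strongest summit within 1000 bp of an end, and its mean is taken over 4 replicates with absence counted as 0. Uba1, the E1 enzyme that activates ubiquitin, came first with percentiles of 99.3, 89.4, 66.5 and 96.0 in replicates 1 to 4, a mean of 87.8 ± 14.8 (SD, n = 4). It was high in every library. Its strongest summit lay on arm 2R at positions 9693183, 9693150, 9693116 and 9693105 in replicates 1 to 4, which is 145 to 223 bp inside the high-coordinate end. Each library held a second summit at Uba1, 781 to 845 bp inside the same end, so that the mark had a pair of peaks there. Of the 21 genes with more than 1 summit in some library, Uba1 alone had them in at least 3 libraries.

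UQCR-11, eIF4G1, Tif-IA and Maf1 act in respiration, in translation and in the transcription of ribosomal and transfer RNA. UQCR-11, a small subunit of respiratory complex III, had percentiles of 29.8, 85.7, 68.4 and 97.4 in replicates 1 to 4, with summits 219 to 312 bp inside its low-coordinate end on 3L. eIF4G1, the scaffold of the cap-binding translation initiation complex, had 22.1, 81.6, 89.2 and 84.9. Both were low in replicate 1 and high in the other libraries. Tif-IA, an initiation factor of RNA polymerase I, had 24.8, 92.9, 74.9 and 62.6, with its 4 summits within 87 bp. Maf1, a repressor of RNA polymerase III, had 63.1, 20.3, 77.9 and 80.1, and here replicate 2 was the low one. The means of these genes were 70.3 ± 29.6, 69.5 ± 31.7, 63.8 ± 28.8 and 60.4 ± 27.8 (SD, n = 4), so their order lay within the spread between replicates.

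The mean next to that of Uba1 was that of ZnT77C, a zinc transporter, 74.8 ± 25.97 (SD, n = 4), with percentiles of 36.4, 93.2, 87.2 and 82.3 in replicates 1 to 4. Its summits lay outside the gene in every library, 871, 622, 660 and 749 bp beyond the high-coordinate end, at 3L positions 20495792, 20495543, 20495581 and 20495670. Fancm, a helicase of the Fanconi anaemia pathway, had 60.2, 80.2, 92.1 and 44.5, with summits 141 to 240 bp inside its low end. Wdr81, which encodes a WD-repeat protein, had 64.6, 45.2, 61.7 and 84.6, and its SD of 16.2 was one of the smallest of these genes. lt (light), the Vps41 subunit of the vacuolar HOPS tethering complex, had 14.1, 92.0, 61.6 and 71.5.

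The remaining 3 of the 12 were CG3651, PlexB and Gprk1. CG3651, PlexB and Wdr81 are the genes among the 12 with an end of a noncoding gene within 2000 bp. CG3651 had percentiles of 13.1, 89.02, 85.6 and 89.5 in replicates 1 to 4. PlexB, a receptor for semaphorins that guides axons, had no summit in replicate 1 and percentiles of 94.9, 86.4 and 86.1 in the other libraries. Gprk1, a kinase of G protein-coupled receptors, had 5.32, 98.5, 75.8 and 56.0 in a gene of 149 kb. Its 4 summits lay within 70 bp, 164 to 234 bp inside the high-coordinate end. Replicate 1 was the lowest library at all 3.

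**Figure D3:**
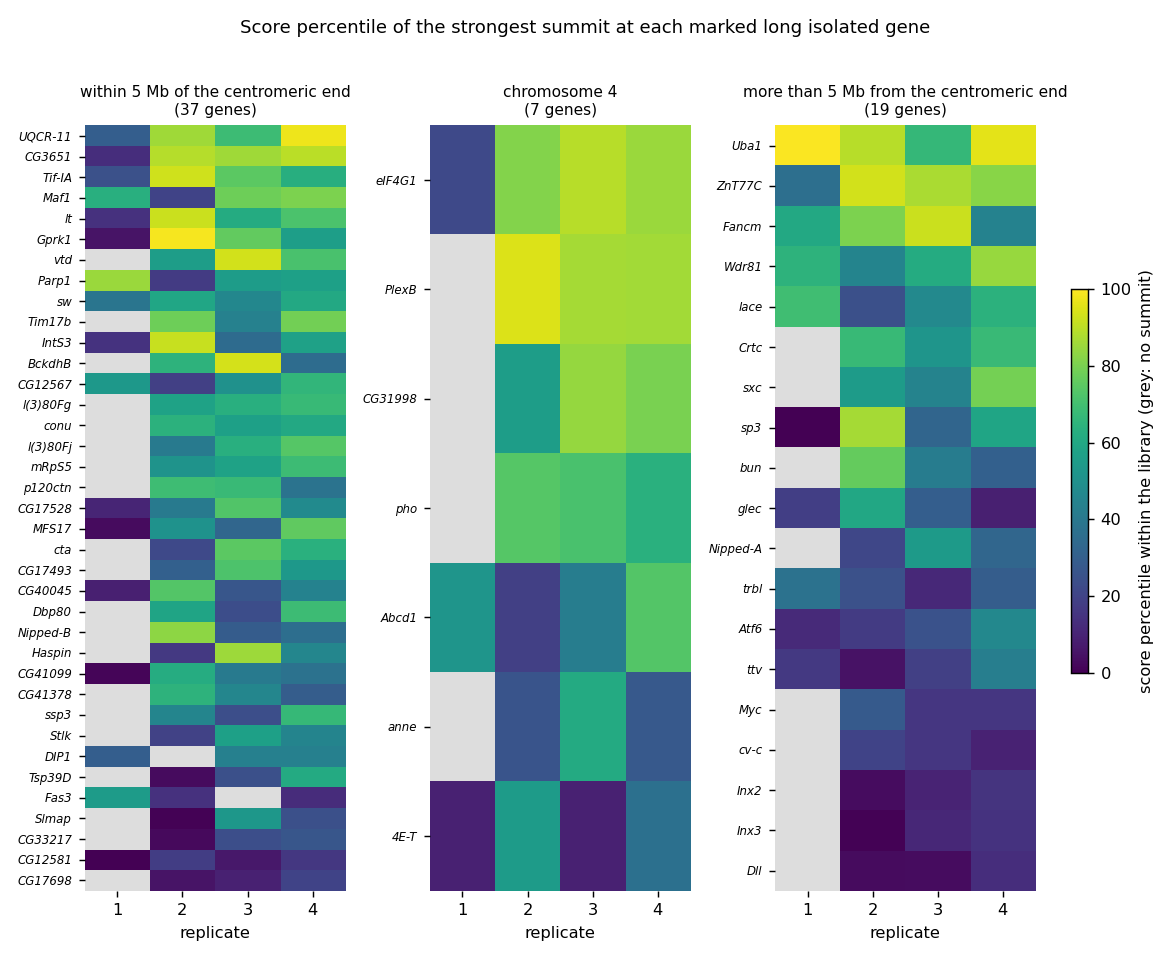
Score percentile of the strongest summit within its library (colour, 0 to 100; grey where there is no summit) for the 63 marked long isolated genes (rows, ordered by mean within each panel) in the 4 replicates (columns), split by chromosome position. Grey cells are mostly in the column of replicate 1, and the lower rows of the panel of genes more than 5 Mb from the centromeric end stay at low percentiles in each library.

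Marked long isolated genes were concentrated at the centromeric sides of the arms and on chromosome 4. The centromere lies at the high-coordinate end of 2L, 3L and X and at the low-coordinate end of 2R and 3R. The distance of each gene was taken from the highest coding gene end on 2L, 3L and X. On 2R and 3R it was taken from the first base of the arm. This split was made after the positions of the marked genes had been seen, so it is a description and carries no test. Within 5 Mb of the centromeric end 37 of 111 long isolated genes were marked (33.3%), on chromosome 4 it was 7 of 20 (35%), and on the rest of the arms 19 of 391 (4.86%). Of the other coding genes 40.3%, 60% and 45.4% were marked in the same 3 zones.

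The concentration was seen in each library. The share of long isolated genes with a summit within 5 Mb of the centromeric end was 15.3%, 35.1%, 35.1% and 38.7% in replicates 1 to 4, against 3.32%, 7.16%, 10.7% and 13.3% on the rest of the arms. On chromosome 4 it was 15%, 40%, 35% and 40%. The lowest value of the centromeric side lay above the highest value of the rest of the arms. By distance, the marked share was 42.1% in the first Mb (19 genes), 25% to 38.2% in the bins from 1 to 5 Mb, 13.04% from 5 to 6 Mb and 3.32% to 5.81% beyond 6 Mb. In the 2 Mb nearest the centromeric end long isolated genes were marked at 34.9%, all other coding genes at 20.8% and the other coding genes of at least 5000 bp at 41.03%, so long isolated genes stood above the other coding genes there but not above those of like minimum length.

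**Figure D4:**
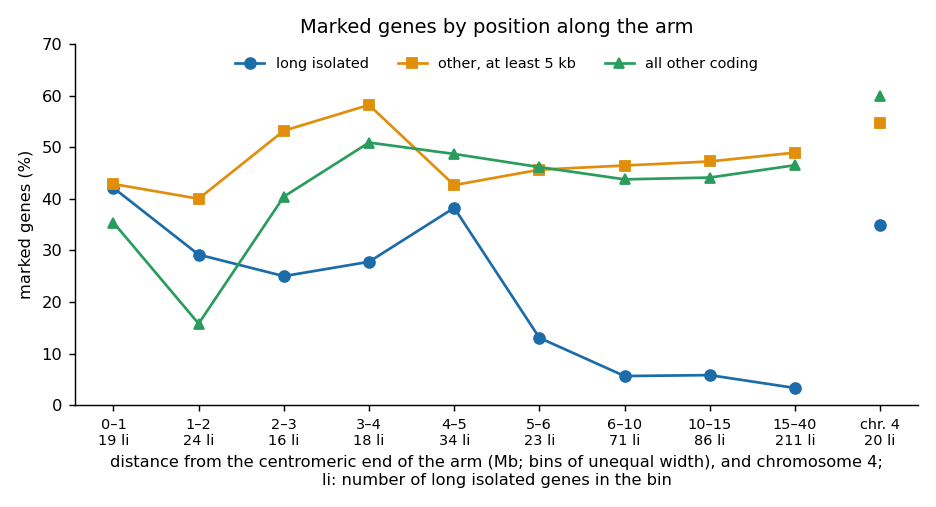
Percent of genes marked (y axis) by distance from the centromeric end of the arm (x axis, bins in Mb of unequal width, and chromosome 4) for long isolated genes, other coding genes of at least 5 kb and all other coding genes; li is the number of long isolated genes in a bin. Long isolated genes stand at 25% to 42.1% within 5 Mb and at 3.32% to 13.04% beyond it, where the other genes stay above 40%.

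The arms did not contribute alike. On 2R 12 of 23 long isolated genes within 5 Mb of the centromeric end were marked, on 3L 9 of 23, on 2L 10 of 28, on 3R 4 of 15 and on X 2 of 22. On the rest of the arms the counts were 6 of 60 on 2R, 3 of 80 on 3L, 3 of 79 on 2L, 5 of 109 on 3R and 2 of 63 on X. The marked share was thus higher on the centromeric side of every arm, with the smallest gap on X.

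Further marked genes of the centromeric side are named here after their values were seen. Parp1, a poly(ADP-ribose) polymerase, had percentiles of 84.99, 17.3, 55.3 and 56.9 in replicates 1 to 4 and summits within 72 bp in a gene of 126 kb. vtd, the Rad21 subunit of cohesin, had none in replicate 1 and 55.5, 93.0 and 71.1 in the other libraries. Nipped-B, the loader of cohesin, had 83.0, 29.2 and 36.1 in replicates 2, 3 and 4. Haspin, a kinase of histone H3 in mitosis, had 16.5, 85.5 and 46.0 in the same libraries. None of the last 3 genes had a summit in replicate 1, so their presence rests on 3 libraries.

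Summit strength also differed by zone. The median percentile of the summits within 5 Mb of the centromeric end was 14.5, 41.2, 51.7 and 46.0 in replicates 1 to 4, against 29.8, 24.6, 9.99 and 14.99 on the rest of the arms. On chromosome 4, with 3 to 9 summits a library, it was 22.1, 55.5, 71.5 and 63.5. In replicates 2, 3 and 4 the centromeric side was thus the higher one, and in replicate 1 the lower. Set against other summits near coding gene ends of the same zone, the percentiles of long isolated genes differed by −32.2 ± 9.64 points on the rest of the arms, by −13.1 ± 12.2 points on the centromeric side and by 3.06 ± 19.1 points on chromosome 4 (SD, n = 4). The share of their summits inside the gene was 88.5% on the rest of the arms, against 94.5% at other summits there, and 97.2% on the centromeric side, against 91.0%. For the other summits this again means inside the coding gene with the nearest end.

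Over all zones together, length and mark were weakly related. Marked long isolated genes had a median length of 11.1 kb and a median of 3 annotated transcripts, those with no summit 18.2 kb and 2 transcripts. By length, 17 of 89 genes of 5 to 7 kb were marked, 10 of 64 of 7 to 10 kb, 17 of 143 of 10 to 20 kb, 8 of 136 of 20 to 50 kb and 11 of 90 above 50 kb. The share thus fell with length up to 50 kb and was higher again above it. Above 50 kb, 7 of 30 genes within 5 Mb of a centromeric end were marked (23.3%) and 4 of 59 on the rest of the arms (6.78%). From 20 to 50 kb the shares of these zones were 23.1% and 1.87%, and from 5 to 7 kb 53.3% and 11.1%. The higher share above 50 kb was thus seen on the rest of the arms, where it rests on 4 genes.

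The 5 longest marked genes were l(3)80Fg (216 kb), Gprk1 (149 kb), Dbp80 (143 kb), Parp1 (126 kb) and bun (91.1 kb). l(3)80Fg had percentiles of 57.8, 63.1 and 67.5 in replicates 2, 3 and 4, and bun, a transcription factor of the TSC22 family, had 76.2, 42.1 and 30.9. Neither had a summit in replicate 1. The 5 longest genes with no summit near an end in any library were Myo81F (1966 kb), Pzl (709 kb), lovit (434 kb), CG17684 (396 kb) and DIP-lambda (379 kb). Myo81F encodes a myosin heavy chain and DIP-lambda a surface protein of neurons that pairs with Dpr proteins. Great length thus went with presence in some genes and with absence in others.

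In the lists of channels, receptors and adhesion proteins few long isolated genes were marked. The gene lists used here were chosen with earlier results of these data known, and a count is read against 63 of 522 long isolated genes (12.1%), or against 4.86% for those more than 5 Mb from the centromeric end. There lay 15 of 20 channel and receptor genes, 52 of 58 adhesion and guidance genes and 51 of 60 developmental transcription factors. The shares of 0%, 3.45% and 3.33% are over whole lists, with all zones together, and are not shares of that zone. The marked adhesion genes lay outside it, Fas3 on the centromeric side and PlexB on chromosome 4. The marked developmental transcription factors, bun and Dll, lay in it. In the counts by list a summit is one within 1000 bp of an end. Of 20 ion channels and neurotransmitter receptors none was marked and none had a summit near an end in any library. In the gene body, nAChRalpha4 had a summit in replicate 2 and one in replicate 4, at percentiles of 0.0402 and 8.58. Among them were 4 nicotinic acetylcholine receptor subunits and 4 serotonin receptors, for example 5-HT1B. Of 58 cell adhesion and axon guidance proteins, a list that also holds proteins of other tissues such as ds and ed, 2 were marked, PlexB and Fas3, 6 had a summit in 1 or 2 replicates and 50 had none. CadN, the neural cadherin, had none, nor had the 9 dpr, 9 beat and 7 DIP genes of the list, families of immunoglobulin proteins of the neuronal surface. Outside the long isolated genes 16 of 106 channel and receptor genes and 19 of 91 adhesion genes were marked.

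Developmental transcription factors were present in few libraries and at low scores. Of 60 such genes 2 were marked, bun and Dll, 15 had a summit in 1 or 2 replicates and 43 had none. The 15 make up 25% of the list, beside 59 of 522 (11.3%) for all long isolated genes. The number of list members with a summit was 0, 4, 7 and 14 in replicates 1 to 4, highest in the longest list; the part of list length in this was not tested. The median percentile of their 29 summits was 4.45, beside 29.5 for all 324. Of the 60 factors 51 lay more than 5 Mb from the centromeric end. All summits at long isolated genes there had medians of 29.8, 24.6, 9.99 and 14.99 in replicates 1 to 4. Abd-B, the most posterior Hox gene, had no summit. Dll, the homeobox gene of the distal limb, had percentiles of 3.06, 3.21 and 13.1 in replicates 2, 3 and 4. Its summit in replicate 2 lay 651 bp outside the low-coordinate end. With summits inside the gene alone, Dll was therefore not marked.

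Summits outside the gene made up a larger share at these factors than over all long isolated genes. Of the 29 summits at developmental transcription factors 10 lay outside the gene (34.5%), beside 22 of all 324 (6.79%). More than 5 Mb from the centromeric end, where most of these factors lie, a mean of 88.5% of long isolated summits lay inside the gene. The 22 outside summits belonged to 17 genes, and at 8 of these every summit was outside. Scr, a Hox gene, had a summit in replicate 4, 369 bp beyond its high-coordinate end. Within 2000 bp of the ends of Scr lay 4 noncoding genes, among them lysine tRNA genes, so this summit may belong to them. H15, a T-box gene, had summits in replicates 2 and 3 that lay 924 bp and 198 bp outside the low end, and opa, a pair-rule gene, had a summit in replicate 3, 774 bp outside. The percentiles of these summits ran from 0.382 at H15 in replicate 3 to 10.6 at Scr, so they were among the weakest of their libraries. Scr, H15 and opa were named after their values were seen.

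The other lists of regulators are read beside the 76.6% of all long isolated genes that had no summit near an end. Of 18 genes of intercellular signalling 1 was marked, ttv, an exostosin needed for the spread of Hedgehog through heparan sulfate. Its percentiles were 16.5, 4.75, 19.0 and 42.9 in replicates 1 to 4. A further 4 (ci, pyr, rl and wg) had a summit in 1 or 2 replicates and 13, among them the growth factor gene Pvf3, had none. At rl, replicates 1, 2 and 3 also held a body summit 1185 to 1394 bp from the nearer end, just past the window. None of 3 ecdysone and juvenile hormone response genes, 2 kinase and cyclic nucleotide genes, 5 RNA-binding protein genes and 5 cytoskeleton and muscle genes was marked. Blimp-1, Ac3, bru3 and Mf are members of these lists without a summit near an end. Outside the long isolated genes the same 4 lists had 17 of 32, 61 of 99, 48 of 69 and 61 of 124 members marked.

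The highest shares were those of a pair of small lists. Of 4 long isolated genes of translation, the proteasome and the respiratory chain 3 were marked, UQCR-11, eIF4G1 and mRpS5, and eIF4B had no summit. mRpS5, a protein of the mitochondrial ribosome, had none in replicate 1 and percentiles of 51.2, 57.4 and 68.5 in the other libraries. Of 9 genes in the chromatin and transcription list 5 were marked, pho, Nipped-A, Nipped-B, Myc and ssp3. ssp3 (short spindle 3) stands in that list by its symbol and is not known for chromatin. pho, a Polycomb group protein that binds DNA, led with 73.5, 71.5 and 63.5 in replicates 2, 3 and 4. Nipped-A, the Tra1 subunit of the SAGA and Tip60 complexes, had 21.3, 54.3 and 33.2 there, and Myc, the growth-promoting transcription factor, had 28.2, 16.0 and 15.7. None of the 5 had a summit in replicate 1. Of the 4 and 9 genes, 3 and 2 lay within 5 Mb of a centromeric end and 1 and 2 on chromosome 4. Outside the long isolated genes the same lists had 300 of 356 (84.3%) and 111 of 129 (86.0%) members marked, so their long isolated members stood lower.

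**Figure D5:**
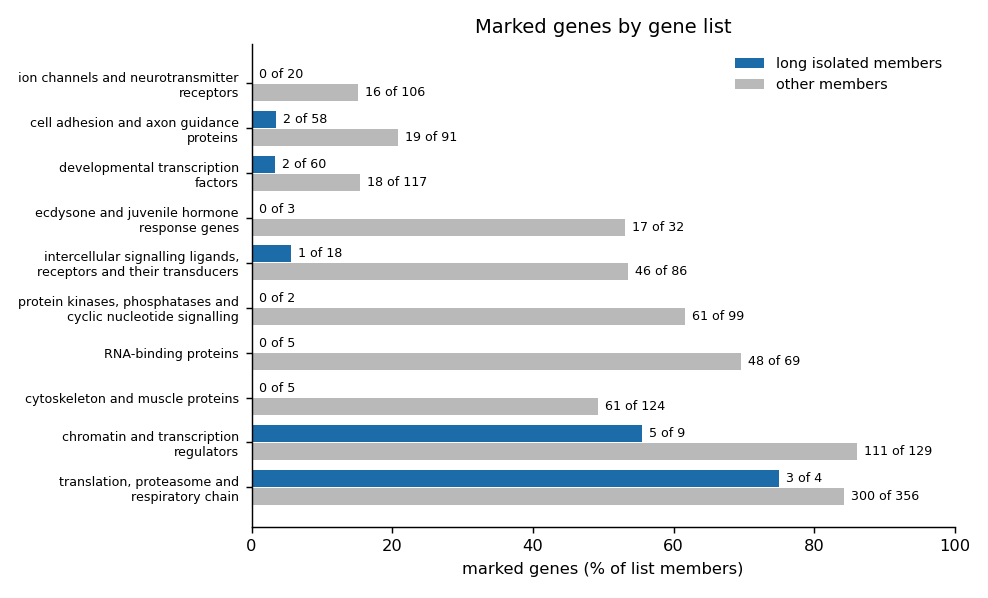
Percent of list members marked (x axis) for the members that are long isolated genes (blue) and for all other coding members (grey), with the counts beside each bar, for 10 gene lists. Blue bars are shorter than the grey bars in each list, and the longest blue bars are those of translation, proteasome and respiratory chain (3 of 4) and of chromatin and transcription regulators (5 of 9).

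At the weak end of the genes present in every library stood CG12581, ttv, Atf6 and trbl. CG12581 had percentiles of 0.199, 18.3, 6.27 and 16.3 in replicates 1 to 4, a mean of 10.3 ± 8.52 (SD, n = 4), and its strongest summits were spread over 824 bp. Atf6, a transcription factor of the endoplasmic reticulum stress response, had 11.95, 17.3, 25.4 and 46.8. trbl (tribbles), a pseudokinase that restrains cell division, had 37.5, 24.9, 11.5 and 29.7. Each of the 4 was thus in the lower part of its libraries, with no value above 46.8.

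Some long isolated genes carried the mark in the gene body with no summit near an outer end. The gene table gives no transcript positions, so a body summit at the start of a shorter transcript cannot be told apart from others. Summits in the body, more than 1000 bp from both ends, lie outside the set of 324 and were found in 51 of the 522 genes. In 13 genes (2.49%) a body summit was present in at least 3 replicates with no summit near an end in any, against 2.65% of all coding genes of at least 5000 bp. They were Zyx, MED26, MRP, CG43736, Eip75B, uex, mub, ph-p, EcR, sn, hth, mbl and Ptp99A. Genes that also had a summit near an end in some library are left out of this count. Among those were d4, with strongest body summits at percentiles of 74.7, 97.6, 71.1 and 57.6 in replicates 1 to 4, and gus. The body summits of gus reached 30.7, 76.5 and 95.7 in replicates 2, 3 and 4. Both were named after their values were seen. At Zyx, MRP and sn a body summit lay within 1000 bp of an end of another coding gene, so the summit cannot be given to the long gene there.

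A pair of these genes belongs to the ecdysone response. Eip75B, an ecdysone-induced nuclear receptor gene of 114 kb, had body summits with percentiles of 51.4, 49.3, 20.8 and 27.8 in replicates 1 to 4. The strongest were at 3L positions 17960530, 17961482, 17961494 and 17961515, so the last 3 lay within 33 bp of each other, 9577 to 10562 bp from the nearer end. EcR, the ecdysone receptor gene, had body summits in replicates 2, 3 and 4 with percentiles of 4.09, 46.6 and 26.1, 37547 to 37802 bp from the nearer end. Neither had a summit near an end, so 2 of the 3 genes counted above as unmarked in that list carried the mark inside. EcR was named after its values were seen.

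Body summits of other genes also recurred at like distances. mub, which encodes an RNA-binding protein with KH domains, had percentiles of 3.77, 19.6, 37.6 and 61.2 in replicates 1 to 4, at 34993 to 35089 bp from the nearer end. MED26, a Mediator subunit encoded on chromosome 4, had 36.2, 47.1, 61.0 and 86.2, with its strongest summits 1461 to 1768 bp from the end and so just past the window. uex had summits in replicates 2, 3 and 4, at 6126 to 6273 bp from the nearer end, and an end of a noncoding gene lay 130 bp from its nearest one. CG43736 had them in the same 3 replicates, with percentiles of 78.6, 26.1 and 49.6.

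At the limits of the rule, the shortest gene kept was phyl with 5002 bp and the longest isolated gene left out was mab-21 with 4999 bp. phyl had no summit, and mab-21 had a summit in 1 replicate. The nearest other coding gene end of a gene kept lay 2001 bp away (Tif-IA, with a summit in 4 replicates), and the farthest of a gene left out 2000 bp away (CG14082, with none). The summit farthest from its gene end lay at 998 bp (ci, replicate 2), and the nearest summit left out at 1009 bp (Lim1, replicate 2).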

How the data were processed

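Chromatin of larvae fixed with 1% formaldehyde (10 min) and sheared by 10 min of sonication went into the precipitation at 30 µg, per the labels' protocols. The submitters' processing notes name MACS2, Picard 2.17.11, SAMtools 1.9, BWA 0.7.17, cutadapt 1.16 and FastQC 0.11.7. The peak caller's version and settings, whether the input served as control, and the genome build: not given in the sources used here. The authors deposited 1 summit list per library, with a score that reads as −log10 of a p-value or q-value, and which of these it is was left unstated. The lowest score of a library was 1.31 to 1.36; a threshold of 0.05 corresponds to 1.301. Read depth is unknown, so no counting interval was computed.

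Gene ends came from a RefSeq gene table (Release 6 plus ISO1 MT) without strand, transcript positions or sequence, so the planned comparison of starts with 3' ends was not run and no sequence is shown. As a check of the build, within 500 bp of a coding gene end stood 84.7% to 87.2% of the summits of a library, and 25.4% to 27.7% after a shift of 10000 bp. Summits off the 6 arms (1) were left out. Positions are those deposited, written 1-based.

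A gene was marked with a summit within 1000 bp of an end in at least 3 of 4 replicates. Percentiles are ranks within a library. Differences were taken within each library and tested by an exact sign-flip permutation test, two-sided, over 4 replicates; no p-value was adjusted. The genes, gene lists and marker list were chosen with earlier results of these data known. Named genes were the 12 marked genes with the highest mean percentile, the 4 lowest present in all replicates and the 5 longest with and without a summit. Genes with a summit at both ends in any replicate and the 6 strongest with body summits and none near an end were also named. In each list the strongest marked member and the alphabetically first member with none were named. Others were named after their values were seen. The steps were tested on simulated summits. The scripts ran in Python 3.11.15 with scipy 1.17.1, pandas 2.3.3, numpy 2.4.6 and, for figures, matplotlib 3.10.9.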

Additional observations from a re-analysis of the deposited data

Results flagged for a closer look

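In 4 of 25 sets of 4 replicate values checked, 1 library stood far from the other 3; chance alone does so in about 1 in 20 sets. Replicate 4 had the lowest share of summits inside the long isolated gene, 91.2%, where the other replicates had 94.05% to 94.6%. Replicate 1 had the lowest median percentile of these summits, 22.1, where the others had 29.6 to 30.0. At CG3651 replicate 1 stood at a percentile of 13.1, where the others had 85.6 to 89.5. At eIF4G1 replicate 1 stood at 22.1, where the others had 81.6 to 89.2; this summit is itself the median one of replicate 1.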

How the results depend on the processing

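Of 112 values recomputed under other settings 25 moved, 4 changed sign and 83 did neither. A count was taken as moved past 1.5 times its value and an untested value past 1 SD between replicates; a tested difference was judged by its sign and whether the exact permutation test passed 0.05, which 4 replicates cannot reach, so its size could still change. Under these settings the difference in share with a summit lay between −17.2 and −36.6 points, and the difference in percentile between −10.7 and −32.2 points. The −36.6 and −32.2 are for genes more than 5 Mb from the centromeric end, and the other zones are not among these settings. Within 5 Mb the differences were −8.06 ± 5.80 and −13.1 ± 12.2 points, and on chromosome 4 −22.1 ± 4.17 and 3.06 ± 19.1 points (SD, n = 4). Within 2 Mb the mean share was 33.1%, against 20.3% at other coding genes, so the sign of the mean difference in share turned there. The share of long isolated genes lay above that mean of the other coding genes in replicates 2, 3 and 4 and below it in replicate 1. The marked share of long isolated genes there was below that of other coding genes of at least 5000 bp. The number of marked genes was 38 with equal numbers of summits per replicate, 15 within 250 bp of the end, 36 with an isolation of 5000 bp, 41 with isolation from all annotated genes, 36 with a minimum length of 10000 bp, 28 with a summit in all 4 replicates and 19 more than 5 Mb from the centromeric end; several of these settings leave fewer genes or summits by construction. The share with a summit was 8.00% with equal numbers and 5.94% within 250 bp. Genes with summits at both ends numbered 1 with scores of at least 5, within 500 bp and under both stricter isolations, 0 with equal numbers, within 250 bp and more than 5 Mb from the centromeric end, and 1 to 2 with a replicate left out. The percent of summits inside the gene was 96.9% with equal numbers, 98.3% within 500 bp and 98.5% within 250 bp, where its difference from other summits turned positive, and 93.2% to 94.3% with a replicate left out, positive without replicate 4; the cause was not tested. The median distance inside was 244 bp within 500 bp and 190.0 bp within 250 bp, as the window sets its limit. Genes with body summits alone numbered 5 with equal numbers, 30 within 250 bp, 3 with an isolation of 5000 bp, 7 with isolation from all genes and 5 with a summit in all 4 replicates. The centromeric split and the count inside the gene were chosen after seeing the data. No paired analysis was possible because a replicate block joins samples of different groups, and a single group of samples, the fly ChIP libraries, was used; the gene sets were compared within each library, so library is already matched in every difference. The share of summits at the annotated start was not run, as the gene table gives no strand.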
